A study of Mus musculus with 4 samples.

Results

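The genes described here encode the proteins of the cytosolic ribosome. They were chosen by symbol from a table of RNA counts of 4 mammary tumours: Rpl (large subunit) or Rps (small subunit) followed by a number, with at most 1 of the letters a, l, x or y and an optional digit, or Rpsa, Rplp0, Rplp1 or Rplp2. Rows named as pseudogenes and the Rps6k kinases were dropped. This gave 84 of the 28440 rows in the table, 51 for the large subunit and 33 for the small subunit. The RefSeq table types 83 of them as protein-coding and 1, Rps4l, as a transcribed pseudogene. A filter on low counts, described below, left 80 of the 84 (48 large, 32 small) for the test, and the 4 left out are given by name with the paralogues.

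The tumours, numbered 1 to 4, come from the mammary gland of mice of the genotype MMTV-R26Met. In this model the mouse mammary tumour virus promoter drives Cre recombinase, which switches on a Met receptor transgene placed in the Rosa26 locus. No treatment, age or further allele is given in the labels, and separate mice are not named for the tumours. All 4 libraries form 1 group without normal tissue or another control, so the question is how these genes differ between tumours of 1 kind, and any p-value measures only the spread between these samples. RNA with a poly-A tail was sequenced from bulk tissue, in which fewer cells of a type and less RNA per cell cannot be told apart.

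A ribosome has a large subunit, which joins amino acids and releases the growing chain through an exit tunnel, and a small subunit, which reads the mRNA. Each ribosomal protein is needed in a fixed number per ribosome, and proteins made in excess are degraded. The mRNAs of nearly all ribosomal proteins begin with a C followed by a run of pyrimidines, the 5′ terminal oligopyrimidine (TOP) motif, through which mTORC1 and LARP1 set how much of them is translated and kept. Growing tumours are known for a high demand for ribosomes, and MYC and mTORC1 are known drivers of their production.

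Library totals ran from 35220504 to 42809015 counts, and no library repeated another: the chi-square of a pair, divided by its degrees of freedom, was at least 131.9. The 3 counts that a count of 0 allows correspond to 0.0706 to 0.0865 CPM over the libraries. CPM are counts per 1000000 counts of the library, here always scaled by the trimmed mean of M values (TMM). Keratin 8 (Krt8), a marker of luminal epithelium, ran from 784 to 1232 CPM and the epithelial adhesion gene Epcam from 476 to 756 CPM, so the labelled tissue's epithelial markers were present in all 4 tumours.

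Ribosomal protein genes held a larger share of the counts of tumours 1 and 2 than of tumours 3 and 4. The 84 genes took 7.84%, 6.76%, 4.06% and 4.59% of all counts in tumours 1, 2, 3 and 4, a mean of 5.81% ± 1.79 (SD, n = 4). Exact binomial intervals (95%, counting error only) ran from 7.83% to 7.85% in tumour 1 and from 4.06% to 4.07% in tumour 3. The highest share was 1.93 times the lowest. In tumour 1, 36 of the 100 most abundant genes were ribosomal protein genes, against 31, 10 and 16 in tumours 2, 3 and 4. Summed over the genes, the level was 78912 CPM in tumour 1, 68687 CPM in tumour 2, 39065 CPM in tumour 3 and 46662 CPM in tumour 4.

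**Figure D1:**
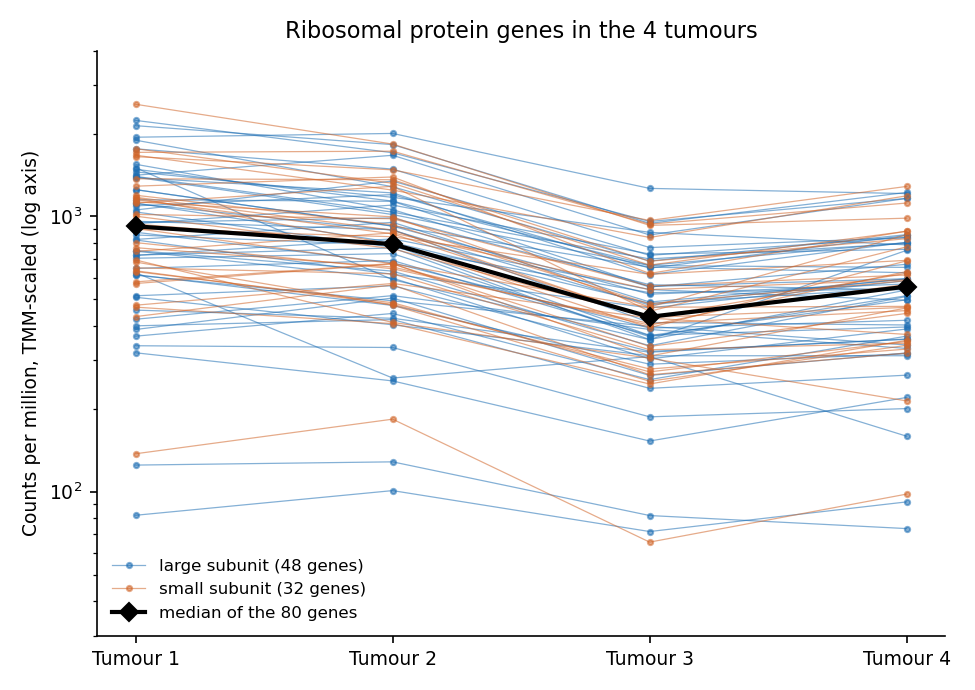
Level of each of the 80 tested ribosomal protein genes in the 4 tumours, in TMM-scaled CPM on a log axis. Thin lines link the values of 1 gene (large subunit in blue, small subunit in orange), and the thick line is the median of the 80 genes, 921 CPM in tumour 1, 793 CPM in tumour 2, 432 CPM in tumour 3 and 556 CPM in tumour 4.

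The genes took nearly the same order of tumours. Every one of the 80 was highest in tumour 1 (53 genes) or tumour 2 (27 genes) and lowest in tumour 3 (67 genes) or tumour 4 (13 genes). Over all 15808 genes tested, 22.9% and 18.9% were highest in tumours 1 and 2, 27.7% and 27.8% were lowest in tumours 3 and 4, and 30.7% had the joint arrangement. In 76 of the 80, both tumours 1 and 2 lay above both tumours 3 and 4, against 15.0% of all genes. The 4 others were Rpl11, Rpl26, Rpl34 and Rpl7l1. The order tumour 1, 2, 4, 3 from high to low was found in 45 of the 80 and in 4.38% of all genes. The tumours were not assigned to these pairs by any label, and the pairs are described here only because the values fell so.

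The differences were of moderate size. The ratio of the highest to the lowest tumour had a median of 2.04 over the 80 genes and of 1.73 over all genes tested, and it was above 2 in 42 of the 80 genes (52.5%; all genes, 37.0%). Tumour 1 lay more than 2-fold above tumour 3 in 38 of the 80 (all genes, 6.82%) and more than 2-fold above tumour 4 in 18 (all genes, 9.35%). The median ratio of tumour 1 to tumour 3 was 1.99 over the 80 genes, against 0.983 over all genes. Among the 252 other genes whose mean reached 368 CPM, the median ratio of highest to lowest tumour was 1.65, and 34.5% were highest in tumour 1 or 2 and lowest in tumour 3 or 4.

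No single ribosomal protein gene passed a test of being more variable between the tumours than genes of its abundance. The test set each gene's spread against edgeR's trended dispersion, at a Benjamini-Hochberg adjusted p of 0.05 over all genes. It passed 0 of the 80 ribosomal protein genes and 3.63% of all genes. At an unadjusted p below 0.05 there were 2 of the 80, Rpl34 and Rpl26, and 8.74% of all genes, and none of the 80 was among the 91 genes that DESeq2 marked as dispersion outliers. This test takes each gene alone, and it does not ask whether genes move together. Over all genes, 37.0% had a ratio of highest to lowest tumour above 2 and 3.63% passed, so most such differences did not pass. A gene that did not pass can therefore still differ between the tumours. The common biological coefficient of variation between these tumours was 0.411, and the median trend value at the abundance of the ribosomal protein genes was 0.362.

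Both subunits had the same pattern at similar size. A score was computed by centring each gene's log2 CPM on its own mean and averaging over genes. For the 48 large-subunit genes it was 0.46, 0.28, -0.46 and -0.28 in tumours 1 to 4. For the 32 small-subunit genes the score was 0.48, 0.31, -0.56 and -0.23 in the same order. The score over all 80 genes had an SD over tumours of 0.46. The summed CPM of the large subunit was 1.47, 1.46, 1.56 and 1.41 times that of the small subunit in tumours 1 to 4, a ratio that varied far less than the summed level itself, whose highest tumour was 2.02 times the lowest.

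All 80 genes were highest in tumour 1 or 2 and lowest in tumour 3 or 4. Any set of them, such as a functional site of the ribosome, therefore has this arrangement, and the sites below describe levels only. Rplp0, Rplp1, Rplp2 and Rpl12 form the P stalk and its base, where elongation factors dock. Rplp0, the stalk's anchor, had 1941 CPM in tumour 1, 2003 CPM in tumour 2, 1265 CPM in tumour 3 and 1211 CPM in tumour 4, a mean of 1605 ± 425 (SD, n = 4). Rplp1, which pairs with Rplp2 on that anchor, had 1151, 1135, 556 and 594 CPM in tumours 1 to 4. Its partner Rplp2 had 615, 475, 291 and 317 CPM. In these 3 genes the values of tumours 1 and 2 did not overlap with those of tumours 3 and 4. Both tumours 1 and 2 lay above both others in 76 of the 80 genes and in 15.0% of all genes.

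Rpl5 and Rpl11 carry the 5S RNA into the large subunit and, when free of the ribosome, bind Mdm2, the ligase that degrades p53. Rpl5 had 1056 CPM in tumour 1, 1345 CPM in tumour 2, 723 CPM in tumour 3 and 839 CPM in tumour 4. Rpl11 had 367, 444, 255 and 368 CPM in tumours 1 to 4, so that tumours 1 and 4 were level. Both were highest in tumour 2. Centred on the gene's mean over tumours, their log2 deviations from the median of the 80 genes were -0.38 and -0.45 in tumour 1. Before centring, these deviations were 0.20 for Rpl5 and -1.33 for Rpl11.

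At the mRNA channel of the small subunit, Rps3, which lines the mRNA entry, had 1763 CPM in tumour 1, 1321 CPM in tumour 2, 666 CPM in tumour 3 and 884 CPM in tumour 4. Rpsa, once described as a laminin receptor and placed near the mRNA exit, had 1710, 1727, 938 and 1119 CPM in tumours 1 to 4. The 5 genes taken for this site (Rps2, Rps3, Rps26, Rps28 and Rpsa) were all lowest in tumour 3, as were 67 of the 80. Of these 5, 3 were highest in tumour 1, as were 53 of the 80. The 8 genes taken for the exit tunnel were Rpl4, Rpl17, Rpl19, Rpl23a, Rpl26, Rpl31, Rpl35 and Rpl39. Their score ran from 0.60 in tumour 1 to -0.54 in tumour 3. Rpl26, whose own centred log2 CPM was 1.11 and -0.97 in these tumours, widens this range. Its values alone are uncertain, as described below.

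Rps19 is the gene most often mutated in Diamond-Blackfan anaemia, an inherited failure of red cell production caused by loss of ribosomal proteins. It had 1169 CPM in tumour 1, 792 CPM in tumour 2, 434 CPM in tumour 3 and 562 CPM in tumour 4. The 4 genes on the X chromosome (Rps4x, Rpl10, Rpl36a and Rpl39) were all lowest in tumour 3, as were 67 of the 80. Their median ratio of highest to lowest tumour was 1.83. Rps6, the small-subunit protein phosphorylated by the S6 kinases, had 1131, 997, 469 and 859 CPM in tumours 1 to 4.

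Compared per length of transcript, most ribosomal protein genes lay within a narrow band. For the 80 tested genes the median of the mean levels over tumours was 930 CPM per kilobase of transcript, with quartiles at 703 and 1200. Highest were Rps14 (2639 ± 1296 CPM per kilobase, SD, n = 4), Rpl41 (2252 ± 711), Rps18 (1869 ± 640), Rps27 (1782 ± 446) and Rplp1 (1722 ± 658). Rpl41, the shortest ribosomal protein, moved up when levels were counted per kilobase of coding sequence, where it led with 13119 CPM per kilobase. The rank order of the genes by CPM was much the same in every tumour, with a Spearman coefficient between 0.882 and 0.939 over the 6 pairs of tumours. This is a coefficient across genes, which are not replicates and differ in length in the same way in each library.

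**Figure D2:**
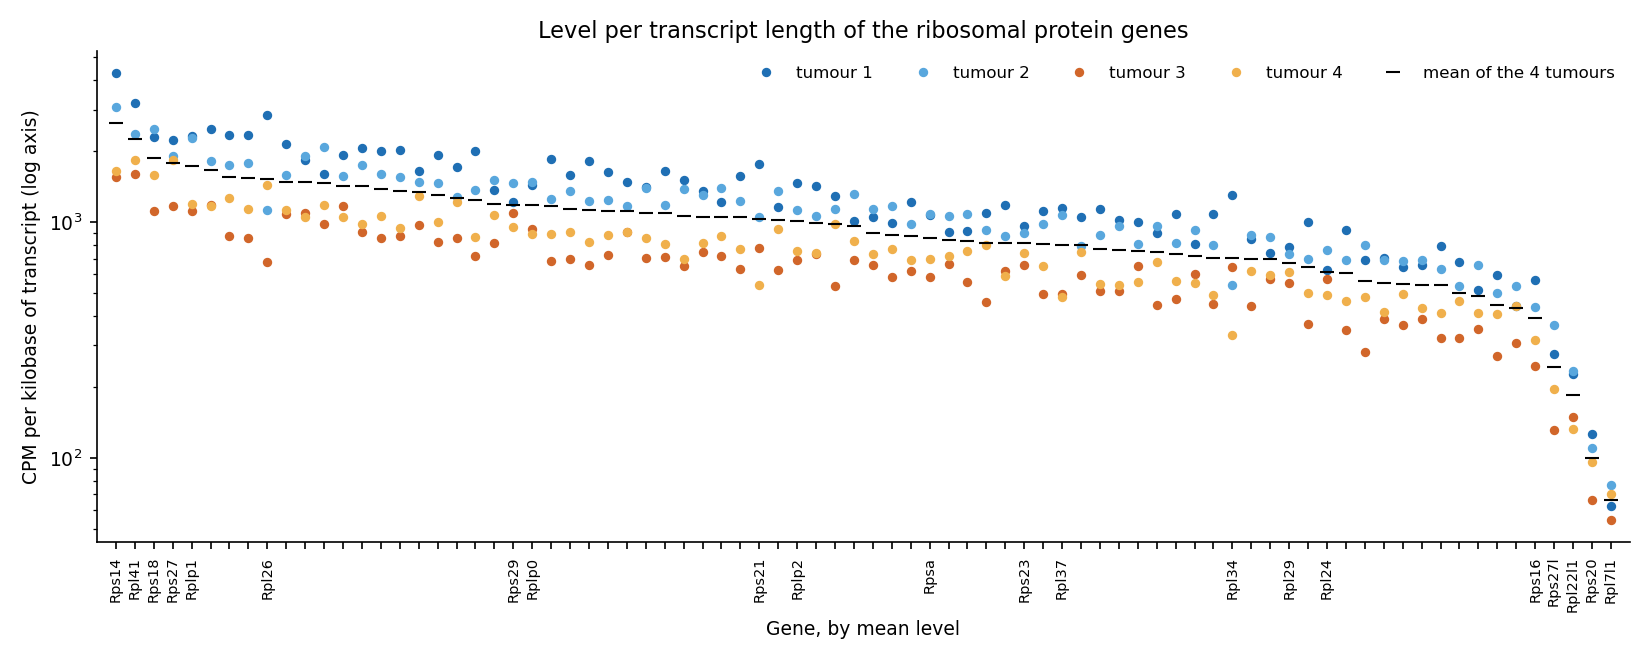
CPM per kilobase of transcript (log axis) for each tested ribosomal protein gene, ordered by its mean over the 4 tumours (black dash), with names for the genes picked out by the naming rule. Points are single tumours, and the blue points of tumours 1 and 2 lie above the orange points of tumours 3 and 4 in most genes, from Rps14 at 2639 to Rpl7l1 at 66.1.

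Among the lowest 5 were 3 paralogues, genes that resemble a standard ribosomal protein gene. Rps27l, which is induced by p53 and can stand in for Rps27, had 137 CPM in tumour 1, 184 CPM in tumour 2, 65.6 CPM in tumour 3 and 98.0 CPM in tumour 4, or 243 ± 102 CPM per kilobase against 1782 for Rps27. Rpl22l1, the paralogue of Rpl22, had 125, 128, 82.0 and 73.5 CPM in tumours 1 to 4, or 185 ± 51.7 CPM per kilobase. Rpl7l1, which acts in the nucleus in large-subunit assembly, had 82.1, 101, 71.7 and 91.9 CPM, or 66.1 ± 9.62 CPM per kilobase, with the smallest ratio of highest to lowest tumour of all 80 (1.41). These 3 genes were all highest in tumour 2, as were 27 of the 80. Rps20 (99.7 ± 25.4) and Rps16 (392 ± 142) complete the lowest 5. The transcript used for Rps20 is 3706 bases long, with a coding sequence of 357 bases. Per kilobase of coding sequence Rps20 had 1035 CPM (rank 62) and Rps16 had 994 CPM (rank 66). Both were then outside the lowest 5.

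The other 4 paralogues did not pass the filter. Rpl3l, the muscle counterpart of Rpl3, had 7, 7, 18 and 10 counts in tumours 1 to 4. Rpl39l, known from male germ cells, had 6, 6, 2 and 20 counts, and Rpl10l, which replaces Rpl10 in meiosis of the testis, had 1, 0, 0 and 1. Of 6 markers of skeletal muscle, all but Mb stood apart in tumour 3, where the muscle actin Acta1 reached 343 CPM against 0.376 CPM or less elsewhere. Mb, the only 1 that passed the filter, had 9.05, 24.5, 14.6 and 16.5 CPM and was highest in tumour 2. Rpl3l was highest in tumour 3, at 0.469 CPM. The part of muscle tissue in that level was not tested.

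Rps4l, on chromosome 6 (148354656 to 148355596), was either present or at 0. It had 64, 0, 61 and 0 counts in tumours 1 to 4. Tumours 1 and 3 were thus at 1.51 and 1.59 CPM, and a count of 0 allows up to 0.0865 CPM in tumour 2 and 0.0731 CPM in tumour 4. When no filter was applied, Rps4l passed edgeR's spread test at an adjusted p of 0.00225, the only 1 of the 84 genes to do so, against 3.79% of all genes. Rps4x, the X-linked gene it resembles, had 58287 counts in tumour 1 and 26377 in tumour 3.

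Within the common movement, single genes kept close to each other. Each gene's log2 CPM was set against the median of the 80 genes in the same tumour, and the SD of that deviation over the tumours had a median of 0.18. It was below 0.2 in 47 of the 80 genes. The same deviation was not computed for other genes, so this count has no share over all genes beside it. The SD of log2 CPM itself had a median of 0.48 over the 80. In Rpl3, which lines the peptidyl transferase centre, the SD of the deviation was 0.04. Its levels were 2137 CPM in tumour 1, 1825 CPM in tumour 2, 944 CPM in tumour 3 and 1223 CPM in tumour 4. The largest values were those of Rpl34 (0.69), Rpl26 (0.55), Rps21 (0.45), Rpl7l1 (0.42) and Rpl24 (0.40).

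**Figure D3:**
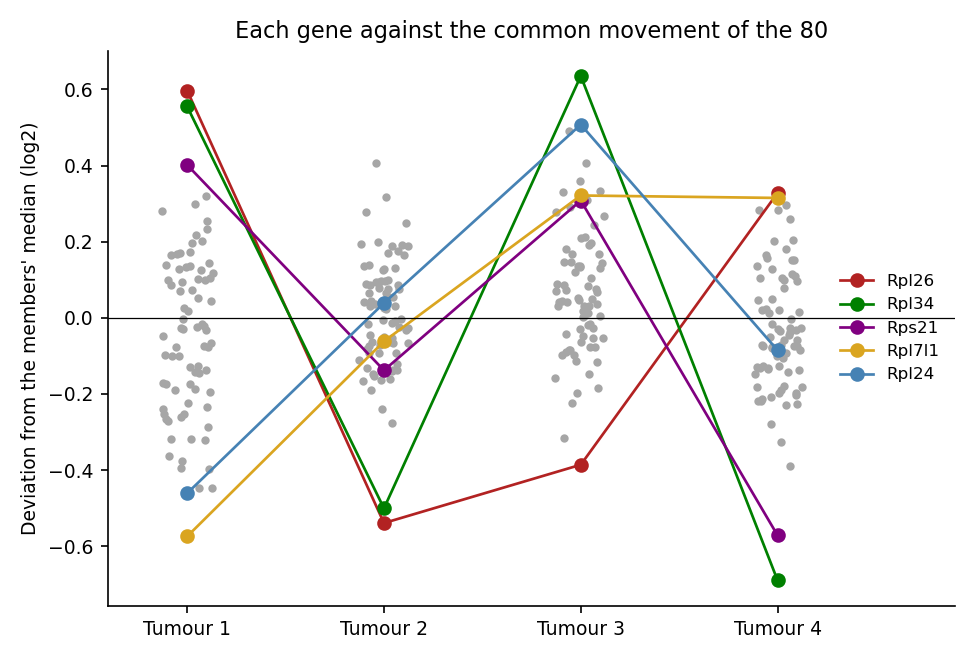
Deviation of each of the 80 genes from the genes' median in the same tumour, on the log2 scale and centred on the gene's mean over tumours; grey points are the other 75 genes. Rpl26 is high in tumours 1 and 4 and Rpl34 in tumours 1 and 3, while Rpl24 and Rpl7l1 are low in tumour 1.

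Rpl26 had 1503 CPM in tumour 1, 589 CPM in tumour 2, 357 CPM in tumour 3 and 753 CPM in tumour 4. Its protein sits at the rim of the exit tunnel and binds the mRNA of p53. The ratio of highest to lowest tumour was 4.21, the largest of the 80 genes, with an edgeR adjusted p of 0.52 for its spread. Rpl34, another large-subunit gene, had 625 CPM in tumour 1, 259 CPM in tumour 2, 310 CPM in tumour 3 and 159 CPM in tumour 4. Its ratio was 3.93 and its edgeR adjusted p 0.499. In both genes tumour 1 stood well above the other 3.

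Each of these genes has a near-identical copy that took part of the counts in some tumours. Gm15772, on chromosome 5 (3236390 to 3236928, RefSeq GRCm38.p6), is typed as a transcribed pseudogene and matches the coding sequence of Rpl26 in 99.54% of 435 bases. The substitutions are C177T and T288C, with the Rpl26 base first and positions counted from 1 at the start codon's first base. Rpl34-ps1, on chromosome 6 (71124589 to 71125001), matches Rpl34 in 99.43% of 351 bases, with the substitutions T132C and C318G. The stretches around these substitutions are shown because reads that do not cross them fit both genes equally. They are from the GENCODE M21 transcripts on GRCm38, read in the sense direction, with the substituted base in capitals.
Rpl26, bases 152 to 202: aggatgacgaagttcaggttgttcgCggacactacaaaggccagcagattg
Gm15772, same stretch: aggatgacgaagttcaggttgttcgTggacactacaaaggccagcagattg
Rpl26, bases 263 to 313: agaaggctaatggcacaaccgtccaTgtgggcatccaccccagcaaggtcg
Gm15772, same stretch: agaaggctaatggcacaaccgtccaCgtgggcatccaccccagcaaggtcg
Rpl34, bases 107 to 157: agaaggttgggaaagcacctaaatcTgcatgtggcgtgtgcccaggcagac
Rpl34-ps1, same stretch: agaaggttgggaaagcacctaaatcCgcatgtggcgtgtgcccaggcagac
Rpl34, bases 293 to 343: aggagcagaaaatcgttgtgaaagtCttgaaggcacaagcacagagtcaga
Rpl34-ps1, same stretch: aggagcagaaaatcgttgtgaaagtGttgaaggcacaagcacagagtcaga

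Gm15772 had 559, 20648, 14053 and 324 counts in tumours 1 to 4. It was therefore high in tumours 2 and 3 and low in the others, and it passed edgeR's spread test at an adjusted p of 3.6e-16. Of the counts of Rpl26 and Gm15772 together, the copy held 0.867%, 50.3%, 50.7% and 1.04% in tumours 1 to 4. The sum of both rows was 1516 CPM in tumour 1, 1185 CPM in tumour 2, 723 CPM in tumour 3 and 761 CPM in tumour 4. Taken as a sum, the ratio of highest to lowest tumour was 2.1, and the SD of the deviation from the genes' median was 0.13 in place of 0.55.

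Rpl34-ps1 had 1, 7312, 0 and 10662 counts in tumours 1 to 4. It held 44.9% of the pair's counts in tumour 2 and 62.0% of those in tumour 4. In tumour 1 its share was 0.00376%, while a count of 0 in tumour 3 allows up to 0.0782 CPM. The filter on low counts left it out of the test because 2 libraries were near 0. Together with Rpl34 it gave 625, 470, 310 and 419 CPM in tumours 1 to 4. The ratio of highest to lowest was then 2.02, and the SD of the deviation from the genes' median was 0.15 in place of 0.69. Each copy was low in 2 tumours, a different pair for each, and each share near 50% or above came with a low value of the parent gene. How the reads were assigned to the copies is unknown here, so the values of Rpl26 and Rpl34 without their copies are uncertain.

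**Figure D4:**
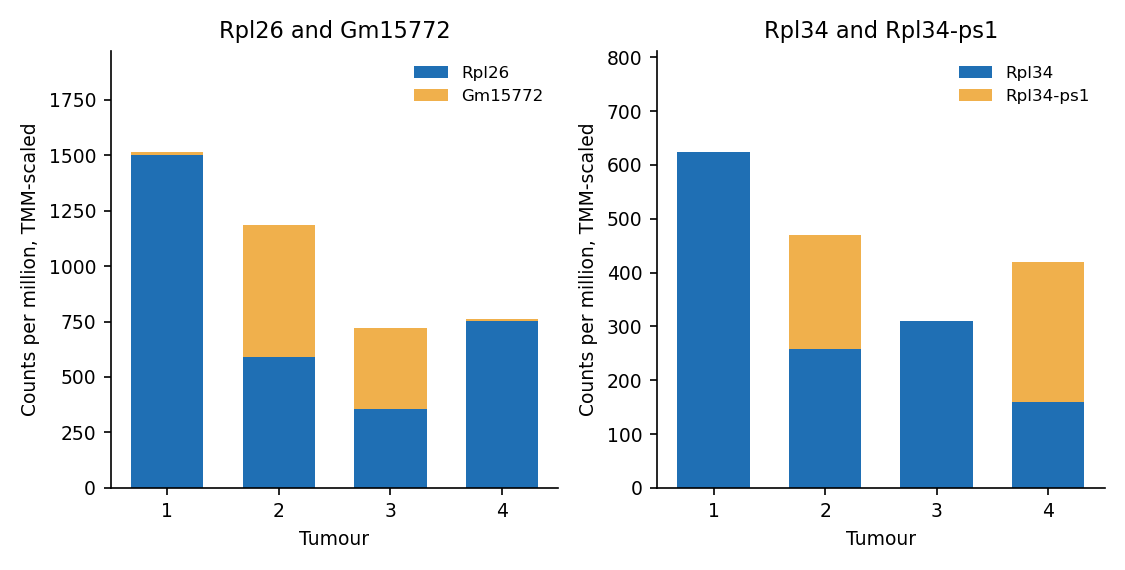
TMM-scaled CPM of Rpl26 with Gm15772 (left) and of Rpl34 with Rpl34-ps1 (right), stacked, in tumours 1 to 4. The copy (yellow) is visible in tumours 2 and 3 for Rpl26 and in tumours 2 and 4 for Rpl34, and the full bars follow the order of the other ribosomal protein genes more closely than the blue parts.

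Near-identical copies were common in the genome, and few of them had a row in the table. A copy without a row could not receive counts, whatever its expression. Of the 83 genes with an annotated coding transcript, 77 had at least 1 other gene with a transcript at least 95% identical over at least 80% of the coding sequence, 573 pairs in all, of which 549 were with genes typed as pseudogenes. Rpl21 had the most, 57. How reads shared with these copies were counted is unknown. The levels and per-kilobase ranks of the other genes with copies are therefore uncertain too. Only 11 of these copies had a row of their own in the table, and 3 had 1000 counts or more in a library. The third was BC004004, a match of Rpl21 on chromosome 17 (29268788 to 29302888) that is typed as protein-coding. It had 1596, 1700, 1821 and 2231 counts in tumours 1 to 4, from 4.94% to 9.86% of the pair's counts. Wdr89, a match of Rplp2 on chromosome 12, is also typed as protein-coding. How many counts of these rows lie in the matching stretch is unknown. The counts of all rows of near-identical copies, BC004004 and Wdr89 among them, were then added to their parents. The median ratio of highest to lowest tumour over the 80 genes became 2.01, and 0 of 80 passed the spread test.

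The other genes far from the common movement had no near-identical copy with a row of its own. Rps21, a small-subunit protein, had 695 CPM in tumour 1, 412 CPM in tumour 2, 306 CPM in tumour 3 and 214 CPM in tumour 4. It was thus lowest in tumour 4, with a ratio of 3.25 and an edgeR adjusted p of 0.907. Rpl24, at the bridge between the subunits, had 423, 516, 389 and 332 CPM in tumours 1 to 4. Rps29 had 476, 571, 428 and 373 CPM. In Rps29 and Rpl24, the deviation from the genes' median, centred on the gene's mean, was low in tumour 1 and high in tumour 3. Rpl29 (ratio 1.42) and Rps23 (1.46) were, with Rpl7l1, Rpl24 and Rps29, the 5 with the smallest SD of log2 CPM. Rps14 (2.75) and Rpl37 (2.38) were, with Rpl26, Rpl34 and Rps21, the 5 with the largest SD, although Rps24 (ratio 2.85) and Rps27l (2.80) had larger ratios than these first 2.

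The genes share features of the promoter, taken from RefSeq (GRCm38.p6, 250 bases before to 50 bases after each annotated start), in which 63 of the 84 matched. In 13 of the 63 (20.6%), the annotated start was a C followed by at least 4 pyrimidines on the sense strand, as in TOP mRNAs. The share over all 27025 genes of the table was 3.01%. A run of that kind began within 10 bases of the start in 61.9% against 34.4%. CCGGAAG, a core of ETS-family sites, was found on either strand in 41.3% against 9.93% of all genes. GGGCGG, the core of SP1 sites, was present in 61.9% against 38.2%, AAGATGGC, as in YY1 sites, in 9.52% against 3.19%, and TATAAA in 11.1% against 15.7%. A match is a description of letters only, and the annotated start can differ from the one used in these tumours.

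To show this arrangement, 6 of the promoters are printed from 70 bases before to 30 bases after the annotated start, on the sense strand. In capitals are CCGGAAG and the pyrimidine run that begins at the start. The first 4 are those in which both were found in this window and the others are 2 genes of the small subunit that have the run alone.
Rpl15, chr14:18270957-18271056, minus strand: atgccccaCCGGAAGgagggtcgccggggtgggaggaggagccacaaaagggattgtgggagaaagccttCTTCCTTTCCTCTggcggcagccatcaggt
Rpl38, chr11:114668510-114668609, plus strand: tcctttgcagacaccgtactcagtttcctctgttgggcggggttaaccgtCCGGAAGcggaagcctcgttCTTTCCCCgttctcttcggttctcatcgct
Rps10, chr17:27635215-27635314, minus strand: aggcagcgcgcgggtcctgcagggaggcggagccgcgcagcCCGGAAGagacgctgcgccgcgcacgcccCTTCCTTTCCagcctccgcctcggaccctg
Rps21, chr2:180257309-180257408, plus strand: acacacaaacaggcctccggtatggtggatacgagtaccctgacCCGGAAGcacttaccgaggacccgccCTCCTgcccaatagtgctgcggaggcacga
Rps6, chr4:86857338-86857437, minus strand: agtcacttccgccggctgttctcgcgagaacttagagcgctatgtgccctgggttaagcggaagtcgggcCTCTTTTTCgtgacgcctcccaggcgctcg
Rps18, chr17:33955636-33955735, minus strand: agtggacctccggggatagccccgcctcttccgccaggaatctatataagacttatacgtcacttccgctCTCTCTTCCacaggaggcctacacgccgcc
In Rps21 the run was the shortest of these, 5 bases, and in Rpl15 it was 13 bases. The spread between tumours was similar with and without these features, and no test of it was made. The median ratio of highest to lowest tumour was 2.15 in the 13 genes with a run at the start and 1.99 in the 47 tested genes with a matched promoter and no such run. It was 1.99 in the 16 tested genes with CCGGAAG in the printed window and 2.0 in the 44 without.

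Length and position of the genes were examined in the same way. The ribosomal protein transcripts had a median length of 751 bases against 2826 over all genes tested. The median ratio of tumour 1 to tumour 3 was 2.04 in the 30 genes with a transcript below 600 bases, 1.98 in the 32 of 600 to 1000 bases and 2.06 in the 18 that were longer. Among the 203 other genes below 600 bases this median ratio was 0.964, and among the 705 of 600 to 1000 bases it was 1.06. Against tumour 4 the same 203 and 705 genes had median ratios of 1.2 and 1.13. Of these genes, 37.9% and 39.3% were highest in tumour 1 or 2 and lowest in tumour 3 or 4. That arrangement was found in 30.9% of other genes of 1000 to 2000 bases and in 28.2% of longer ones. The part of length was not tested. The ribosomal protein genes lie on 19 chromosomes. In the 14 on chromosome 7 the median ratio of tumour 1 to tumour 3 was 2.31, against 1.92 in the 66 elsewhere. The 1070 other genes of chromosome 7 had a median of 1.1 for this ratio, against 0.971 for genes elsewhere.

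Other mRNAs of the TOP class were arranged over the tumours like the ribosomal protein genes. The list holds 20 genes, chiefly elongation and initiation factors, and all 20 were highest in tumour 1 or 2 and lowest in tumour 3 or 4, the arrangement of 30.7% of all genes. The median ratio of highest to lowest tumour was 1.91, and 0 of 20 passed edgeR's spread test. Their score was 0.44, 0.21, -0.38 and -0.28 in tumours 1 to 4. Eef1a1, which brings aminoacyl-tRNA to the ribosome, had 10131 CPM in tumour 1, 10681 CPM in tumour 2, 5737 CPM in tumour 3 and 7496 CPM in tumour 4. Eef2, which moves the ribosome along the mRNA, had 4026, 3421, 1835 and 2704 CPM. Gas5, a long non-coding RNA whose transcript carries a TOP motif and which hosts small nucleolar RNAs, had 234, 218, 112 and 203 CPM.

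Of the 6 tested genes listed with the ribosome whose symbols fall outside the pattern, 5 had the arrangement of the ribosomal protein genes (all genes, 30.7%). Their median ratio of highest to lowest tumour was 1.58, none was above 2, and 0 passed the spread test. Rack1, a signalling scaffold on the small subunit, had 1887 CPM in tumour 1, 1485 CPM in tumour 2, 1083 CPM in tumour 3 and 1075 CPM in tumour 4. Fau, which encodes a ribosomal protein fused to a ubiquitin-like protein, had 696, 576, 414 and 431 CPM. Both genes also belong to the TOP list. Rpl36al, a paralogue of Rpl36a with 2 letters after the number, had 150, 175, 150 and 135 CPM and a ratio of 1.29. Rsl1d1, a nucleolar gene of the list, was the exception, highest in tumour 3 with 104, 115, 144 and 97.3 CPM, and Rsl24d1, a large-subunit assembly factor, had 34.1, 40.5, 29.5 and 38.7 CPM.

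Genes that build ribosomes or run other parts of translation had lower median ratios than the ribosomal protein genes. Of 48 ribosome assembly genes, 22 had the arrangement of the ribosomal protein genes, which 30.7% of all genes had. Their median ratio of highest to lowest tumour was 1.46, and 0 passed the spread test. The most abundant, nucleolin (Ncl), had 428, 327, 339 and 342 CPM in tumours 1 to 4. Of 15 genes of RNA polymerase I and its factors, which make ribosomal RNA, 9 had the arrangement, with a median ratio of 1.59 and 0 passing. Taf1d led them with 852, 983, 402 and 387 CPM. The 34 tested translation factors, 10 of which are also on the TOP list, had it in 22 and a median ratio of 1.54, with 0 passing. In the 27 genes of mTORC1, the S6 kinases and proteins that bind TOP mRNAs, 11 had the arrangement and 0 passed. Larp1, which binds the TOP motif itself, had 211, 229, 241 and 237 CPM. Of 17 genes that escort free ribosomal proteins or respond to them, among them Mdm4 (297, 247, 192 and 194 CPM), 11 had it and 0 passed. In the MYC network it was 5 of 11, with 0 passing, and Myc had 83.1, 61.8, 44.5 and 67.6 CPM.

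The ribosomal proteins of mitochondria had a lower median ratio. Its 78 proteins are encoded in the nucleus by genes named Mrpl and Mrps and are made on cytosolic ribosomes. Of these, 41 had the arrangement of the cytosolic genes (all genes, 30.7%), and 0 passed the spread test. The median ratio of highest to lowest tumour was 1.39, and the score was 0.10, 0.02, 0.02 and -0.14 in tumours 1 to 4. Mrpl51, the most abundant, had 94.8, 77.3, 87.4 and 49.9 CPM. No test of the difference between these lists was made.

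**Figure D5:**
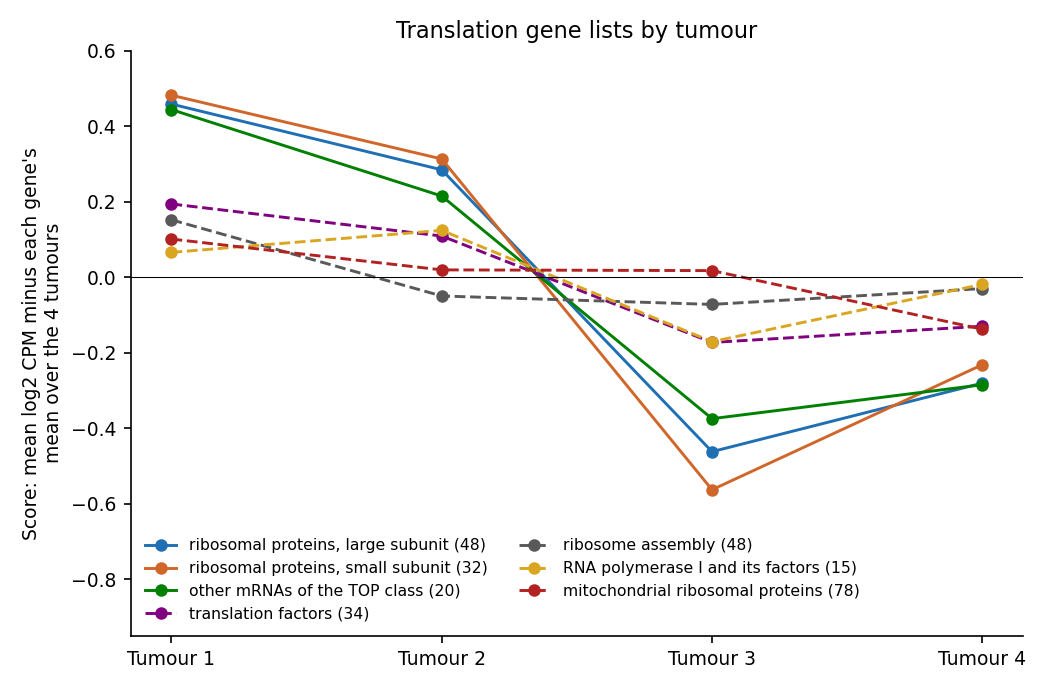
Score of each gene list in the 4 tumours (centred log2 CPM averaged over tested genes; number of tested genes in brackets; lines link the values of 1 list). Both ribosomal subunits and the other TOP mRNAs run from 0.44 or more in tumour 1 to between -0.38 and -0.56 in tumour 3, while the mitochondrial ribosomal proteins stay between 0.10 and -0.14.

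Several other measures differed between these tumours. The proliferation markers, 10 genes such as Mki67, had their highest level in tumour 3 in all 10, where ribosomal protein genes were lowest for the most part; their score was 0.12, -0.42, 0.74 and -0.44 in tumours 1 to 4, and 0 of 10 passed the spread test. The 7 markers of milk-producing epithelium all passed, and their summed level was 314 CPM in tumour 1, 6057 CPM in tumour 2, 2981 CPM in tumour 3 and 32670 CPM in tumour 4. None of the 5 luminal markers was highest in tumour 1, where all 5 were lowest, and 1 of them, Krt19, passed. Of 7 tested leukocyte markers 1 passed (S100a9), and their score ran from -0.62 in tumour 1 to 0.38 in tumour 4. The 7 fibroblast markers ran from 2421 CPM summed in tumour 1 to 3665 CPM in tumour 4, with 0 passing. Of 5 endothelial markers 0 passed, with a score from 0.37 in tumour 3 to -0.48 in tumour 4, and Fabp4, the only adipocyte marker tested, passed with 90.9 CPM in tumour 3 against 25.8 CPM or less in the others. The adipocyte markers left out by the filter (Adipoq, Cidec, Lep and Plin1) were instead all highest in tumour 2, at 3.72 CPM or less. The part of these cell types in the level of the ribosomal protein genes was not tested. Transcripts of the mitochondrial genome held from 1.36% of counts in tumour 4 to 1.71% in tumour 1, and Malat1, a nuclear RNA, from 1.4% to 1.58%. Neat1, another nuclear RNA, held 1.12%, 1.15%, 0.467% and 0.856% of counts in tumours 1 to 4, and was thus higher in tumours 1 and 2. The part of these measures was not tested either.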

How the data were processed

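Bulk poly-A RNA of 4 mammary tumours was sequenced as paired reads, per the labels' protocols. The values are raw counts, whole numbers per gene in a single table as the authors deposited it. FastQC and the builds GRCm38 and mm10 are named, per the submitters' processing notes; the aligner, counting program, annotation and strand setting were not given in the sources used here. Reads of overlapping or antisense genes therefore cannot be told apart. Of 28440 rows, 24480 (86.08%) matched a symbol in RefSeq GRCm38.p6 and held 97.86% of the counts. Library columns were matched to tumours by number, and 0 columns of values were left unused.

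The analysis used edgeR 4.0.16 (R 4.3.3). The filter filterByExpr with 1 group (minimum count 10, total 15) left 15808 genes, and scaling was by TMM, with factors from 0.983 to 1.04. With no groups to compare, each gene was fitted by a negative binomial model with a mean alone and the trended dispersion, the deviance was referred to a chi-square distribution, and p-values were adjusted by Benjamini-Hochberg over all genes. The test was checked on simulated data, where it missed most of the smaller changes. Log2 CPM used a prior count of 2. Transcript and coding lengths came from GENCODE M21 (CCDS, then APPRIS principal, then the shortest transcript), and copies were found with blastn 2.17.0. Random priming makes counts depend on transcript length, so levels are compared between genes only per kilobase.

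The members and the gene lists were chosen with earlier results of these data known. Named genes were those near or past the threshold, the paralogues, Rpsa and the P stalk genes, the 5 highest and 5 lowest by level per length, the 5 with the largest and smallest SD, those with the largest deviations, and the most abundant gene of each list with any gene past the test. The rule gave 25 members. Other genes, among them those of the functional sites, Larp1, Myc, Eef2 and Gas5, are named as examples chosen after their values were seen. Alternatives were other scalings, filters, adjustment and prior counts, DESeq2 1.42.0 dispersion outliers, pseudogene counts added to the parent gene and each tumour left out in turn. Some genes are not reported here.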

Additional observations from a re-analysis of the deposited data

How the results depend on the processing

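Of 308 values recomputed under alternatives, 252 were edgeR adjusted p-values of named genes. In the main run these lay at 0.499 or above, far from the threshold. In all, 307 stayed on the same side of the threshold, within 1.5 times of the reported value or, for count shares, within 1 SD. The exception was the number of ribosomal protein genes past the spread test without a filter, which was 1, Rps4l, in place of 0. The lowest edgeR adjusted p of any of the 21 named genes with a test was 0.117, for Rpl26 without tumour 4. The median ratio of highest to lowest tumour was 2.05 with RLE scaling, 1.99 with library size alone, and from 1.76 to 2.04 with each tumour left out in turn; without Rpl26 and Rpl34, chosen after seeing the data, as was the addition of all near-identical copies, it was 2.0. The share of counts had a mean from 5.14% to 6.4% with each tumour left out. With library size alone, 62 genes in place of 67 were lowest in tumour 3. Scalings moved the median of all genes by at most 0.06 on the log2 scale. No paired analysis was possible because the 4 tumours form 1 group. With 1 library per tumour, sampling within a tumour cannot be told apart from differences between tumours, and no mouse identity is given.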

Other observations

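The present-or-absent counts of Rps4l and Rpl34-ps1 were set beside all other rows. Rows with at least 50 counts in 2 tumours and at most 3 in both others numbered 22 of 28440. They were 9 for tumours 1 and 3, which include Rps4l, 4 for tumours 1 and 2, 3 for tumours 1 and 4, 3 for tumours 2 and 4, which include Rpl34-ps1, 2 for tumours 3 and 4, and 1 for tumours 2 and 3. Rpl34-ps1 had by far the most counts of the 22, with 7312 in tumour 2 and 10662 in tumour 4. Dlx1, a homeobox gene, came next, with 95 counts in tumour 1 and 1539 in tumour 3. Nat8, an acetyltransferase gene also on chromosome 6 (85830387 to 85836857), was present in the same tumours as Rpl34-ps1, with 67 counts in tumour 2 and 274 in tumour 4 and 0 in the others. The labels give no strain background or genotype beyond MMTV-R26Met, and no cause was tested.

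Taf1d, a subunit of the factor that recruits RNA polymerase I, had 852, 983, 402 and 387 CPM in tumours 1 to 4. Both tumours 1 and 2 lay above both tumours 3 and 4, as in 15.0% of all genes. Taf1d had a ratio of highest to lowest tumour of 2.54, against a median of 1.59 over the 15 genes of that list. It did not pass edgeR's spread test (adjusted p of 1.0).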
